A study of Homo sapiens with 3 samples.

Results

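The genes of the proteasome were followed in bulk RNA of RWPE1 cells, an immortalized, non-tumour line of human prostate epithelium. The members were chosen by name: 38 genes that encode the core particle, the regulatory particle and its base assembly chaperone, the PA28 activators and the catalytic subunits of the immunoproteasome. All 38 were found among the 58037 genes of the count table by their Ensembl identifiers, and all 38 had a mean level over the 3 libraries of 1 CPM or more (counts scaled to a common library size), as did 16600 genes in all. The groups were 7 alpha ring genes, 7 constitutive beta ring genes, 3 immunoproteasome genes, 6 ATPase genes, 3 other genes of the base, 8 lid genes, 1 base assembly chaperone (PSMD5) and 3 PA28 genes.

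The line was sequenced in 3 genotypes with 1 library each, labelled OLFM4-wild, OLFM4-knockout and OLFM4-active, called the wild, knockout and active-labelled libraries below. Each pair of libraries was compared, and in a comparison named knockout versus wild a positive log2 fold change means more RNA in the knockout library. OLFM4 encodes olfactomedin 4, a secreted glycoprotein found in stem and progenitor cells of several epithelia. Per the methods of the study, RNA came from cells sorted for a GFP marker, and the edited cells were puromycin-selected stable lines carrying CRISPR double-nickase knockout or CRISPR activation plasmids. Reporter cells called OLFM4-wild were also made with activation plasmids. The study calls the GFP-expressing wild and knockout cells clones, and how many clones went into a library is not given in the sources used here. With 1 library per genotype there was no replicate and no test across conditions, so each difference below compares libraries, and its 95% interval covers counting error only.

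The targeted gene was checked first. OLFM4 had 214 counts in the OLFM4-wild library, which is 11.8 CPM (95% interval 10.3 to 13.5). It had 131 counts in the OLFM4-knockout library, or 2.55 CPM (2.13 to 3.03), and 16 counts in the library labelled OLFM4-active, or 0.670 CPM (0.383 to 1.09). The level went against the label in the last of these, which held the least OLFM4 of the 3, so it is called by its label throughout and no direction is drawn from that label. Depth was 16309906, 58837147 and 23224216 counts in the wild, knockout and active-labelled libraries. The basal keratins and the basal transcription factor TP63 were abundant, with a summed level of 17946, 39786 and 21388 CPM over 5 basal markers. Of the defining markers of other cell types, CD3E, LYZ, KLK2, CDH5 and DES were at 0 in every library, PTPRC had 0, 2 and 0 counts, and KLK3 had 2, 0 and 0 counts. The 6 leukocyte markers summed to 32.1, 24.5 and 19.8 CPM, nearly all of it CD68, and the 6 markers of fibroblasts and smooth muscle summed to 36.7, 33.6 and 23.9 CPM. The part of other cells in the values below was not tested, and fewer cells of a type cannot be told apart from less RNA per cell in bulk RNA.

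The proteasome is the large protease that degrades proteins tagged with ubiquitin. Its 20S core is a barrel of stacked rings: alpha rings form the outer gates, and beta rings line the chamber and carry the cutting sites. The 19S regulatory particle caps the barrel. Its base holds a ring of ATPases that unfold substrates and push them in, and its lid removes the ubiquitin chain. In cells exposed to interferon the catalytic beta subunits PSMB5, PSMB6 and PSMB7 can be replaced by PSMB8, PSMB9 and PSMB10, which makes the immunoproteasome and favours peptides for display on MHC class I. PA28 is another cap that opens the core without ATP. PSME1 and PSME2 form the interferon-inducible cytoplasmic PA28, and PSME3 forms the nuclear one. When proteasome activity is short, the transcription factor NFE2L1 raises the genes of the constitutive subunits through antioxidant response elements.

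Because interferon regulatory factors bind DNA at GAAANNGAA and NFE2L1 binds at TGACNNNGC, these letters were searched on both strands of promoter windows (RefSeq, GRCh38.p14, from 250 bases before to 50 bases after a start). The starts used for the windows can differ from the ends of the gene spans given further below, as for PSMB8 and PSMB9. A window was held for 33 of the 38 members (more than 1 for 6 of them, all of which were searched), and not for PSMA7, PSMB1, PSMB6, PSMB7 and PSMD4. GAAANNGAA was found in 7 of the 33 members (21.2%), which were PSMB4, PSMB8, PSMB10, PSMC2, PSMA4, PSME1 and PSME2, and in 9.86% of all 27305 genes with a window. The stretches below are each of 100 bases and read 5′ to 3′ on the gene's strand, and capitals mark the match. They are shown because the immunoproteasome and cytoplasmic PA28 genes lay below the constitutive subunits in the active-labelled versus wild comparison. In the knockout versus wild comparison PSMB8, PSMB10 and PSME2 lay within the range of the constitutive core, at 0.52, 0.95 and 0.44 against 0.36 to 1.2. PSMB8 is at chr6:32844028-32844127 (minus strand), PSMB10 at chr16:67936831-67936930 (minus strand), PSME1 at chr14:24136114-24136213 (plus strand) and PSME2 at chr14:24146591-24146690 (minus strand).
PSMB8: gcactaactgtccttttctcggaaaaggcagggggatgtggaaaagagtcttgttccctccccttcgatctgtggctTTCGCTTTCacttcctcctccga
PSMB10: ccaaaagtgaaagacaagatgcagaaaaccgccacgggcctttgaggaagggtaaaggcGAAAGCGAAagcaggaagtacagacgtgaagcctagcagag
PSME1: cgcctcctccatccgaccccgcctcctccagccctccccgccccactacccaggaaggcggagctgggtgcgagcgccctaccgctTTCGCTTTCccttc
PSME2: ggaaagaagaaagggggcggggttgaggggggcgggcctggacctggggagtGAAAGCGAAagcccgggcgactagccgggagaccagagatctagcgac
In all 4 genes the capitals spell the same letters, GAAAGCGAA or their reverse complement TTCGCTTTC. They lie in the later part of the stretch, close to the start used for the window, and for PSMB8 this is 1 of 2 windows.

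The window of PSMB9 held no match. TAP1, which encodes a subunit of the peptide transporter of MHC class I and is no member, is read from the opposite strand beside PSMB9, and its window held a pair of overlapping matches at chr6:32853765-32853864 (minus strand). The PSMB9 stretch lies at chr6:32854112-32854211 (plus strand). Both are shown because the starts used for these windows lie near each other, and bases between these stretches are not printed.
TAP1: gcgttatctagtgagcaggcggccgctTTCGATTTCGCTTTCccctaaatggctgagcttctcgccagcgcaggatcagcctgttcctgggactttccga
PSMB9: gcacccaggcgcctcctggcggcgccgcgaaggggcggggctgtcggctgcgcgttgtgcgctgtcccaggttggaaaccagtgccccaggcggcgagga
TGACNNNGC was found in 11 of the 33 members (33.3%) and in 16.1% of all genes with a window. The 11 were PSMD1, PSMB9, PSMD5, PSME1, PSME2, PSMA4, PSMB3, PSMD3, PSMC5, PSMD12 and PSMC4. An alpha ring, a beta ring and an ATPase gene are shown as examples of the constitutive subunits, at chr15:78540636-78540735, chr17:38752591-38752690 and chr17:63827641-63827740, all on the plus strand.
PSMA4: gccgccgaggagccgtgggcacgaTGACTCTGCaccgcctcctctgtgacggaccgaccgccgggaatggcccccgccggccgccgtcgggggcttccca
PSMB3: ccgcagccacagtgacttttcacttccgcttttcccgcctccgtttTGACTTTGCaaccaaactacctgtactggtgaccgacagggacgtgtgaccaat
PSMC5: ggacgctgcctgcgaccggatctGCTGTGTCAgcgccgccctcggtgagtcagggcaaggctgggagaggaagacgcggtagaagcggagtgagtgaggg
In PSMC5 the capitals hold the reverse complement of the letters searched. PSMA4, PSME1 and PSME2 held both kinds of match. In PSME1 and PSME2 these lay in the same window without overlap, and in PSMA4 they lay in separate windows. A match of letters is a description of the window, and no binding was measured here.

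Read pairs on the 38 genes made up 0.307% (95% Clopper-Pearson interval 0.305 to 0.310) of all counts in the wild library, 0.373% (0.371 to 0.375) in the knockout library and 0.353% (0.351 to 0.356) in the active-labelled library. CPM and log2 fold changes were scaled with TMM factors, which set the knockout library 0.35 higher on the log2 scale against wild than library totals did. The corresponding shifts were 0.11 for the active-labelled versus wild comparison and 0.24 for the knockout versus active-labelled comparison. The median log2 fold change of all 16600 genes was 0.10, 0.05 and 0.08 with TMM in these comparisons, and -0.26, -0.07 and -0.16 with totals. Differences from this median do not depend on the scaling and are given beside the main values. Shares of all genes beyond a limit are given with TMM only, so member counts with totals stand beside these medians alone.

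In the knockout versus wild comparison, the proteasome genes were higher as a set, the constitutive core the most and the lid, PA28 and PSMD5 the least. The median log2 fold change of the 38 was 0.60, with quartiles of 0.38 and 0.78, and 0.24 with library totals. With TMM 36 of 38 (94.7%) were above 0, against 56.7% of all genes, and 29 of 38 with totals. Above 0.5 were 25 of 38 (65.8%), against 23.6% of all genes, and none was below -0.5, against 18.6% of all genes. With totals 6 were above 0.5 and 1 was below -0.5. Relative to the median of all genes the members' median was 0.50 higher, and 34 of 38 lay above it. Against coding genes of their own transcript length class, described below, the median difference was 0.23, with 32 of 38 above. Of 3077 coding genes within the members' length quartiles, a set chosen after the data were seen, 2436 were above 0 with TMM. Of the same genes 1129 were above 0.5 and 149 below -0.5.

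In the active-labelled versus wild comparison the set was higher by less, while the immunoproteasome genes and PSME1 were lower, and PSME2 was at -0.06. The members had a median of 0.27, or 0.16 with totals. With TMM 33 of 38 (86.8%) were above 0, against 53.9% of all genes, and 28 with totals. Above 0.5 were 7 of 38 (18.4%), close to the 15.7% of all genes, and 1 (2.63%) was below -0.5, against 17.3% of all genes. With totals these counts were 4 and 1. Relative to the median of all genes the members' median was 0.23 higher, with 32 of 38 above it. These comparisons share the wild library and are not independent of each other.

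In the knockout versus active-labelled comparison, the median of the 38 was 0.35 with TMM and 0.11 with totals. With TMM 31 of 38 (81.6%) were above 0, against 56.7% of all genes, and 23 with totals. Above 0.5 were 13 (34.2%), against 18.6% of all genes, and 2 (5.26%) were below -0.5, against 13.7% of all genes. With totals these counts were 4 and 3. The members' median was 0.27 above that of all genes, and 31 of 38 lay above it. Against coding genes of their own transcript length class, described below, the median difference was only 0.09, with 24 of 38 above.

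**Figure D1:**
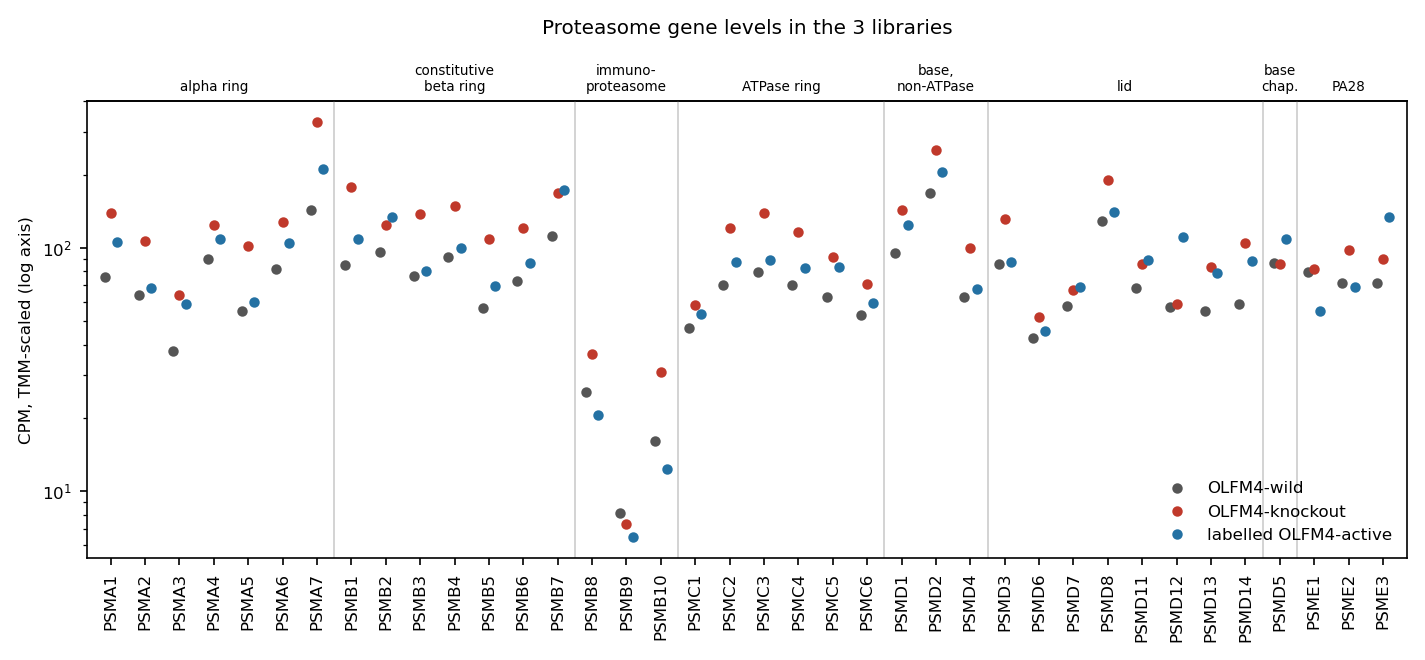
Level of each of the 38 proteasome genes in the 3 libraries, in CPM scaled by TMM on a log axis, grouped by subunit type; each point is 1 library. The immunoproteasome genes lie lowest, from 6.45 to 36.4 CPM, and PSMA7 in the knockout library is highest, at 329 CPM.

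**Figure D2:**
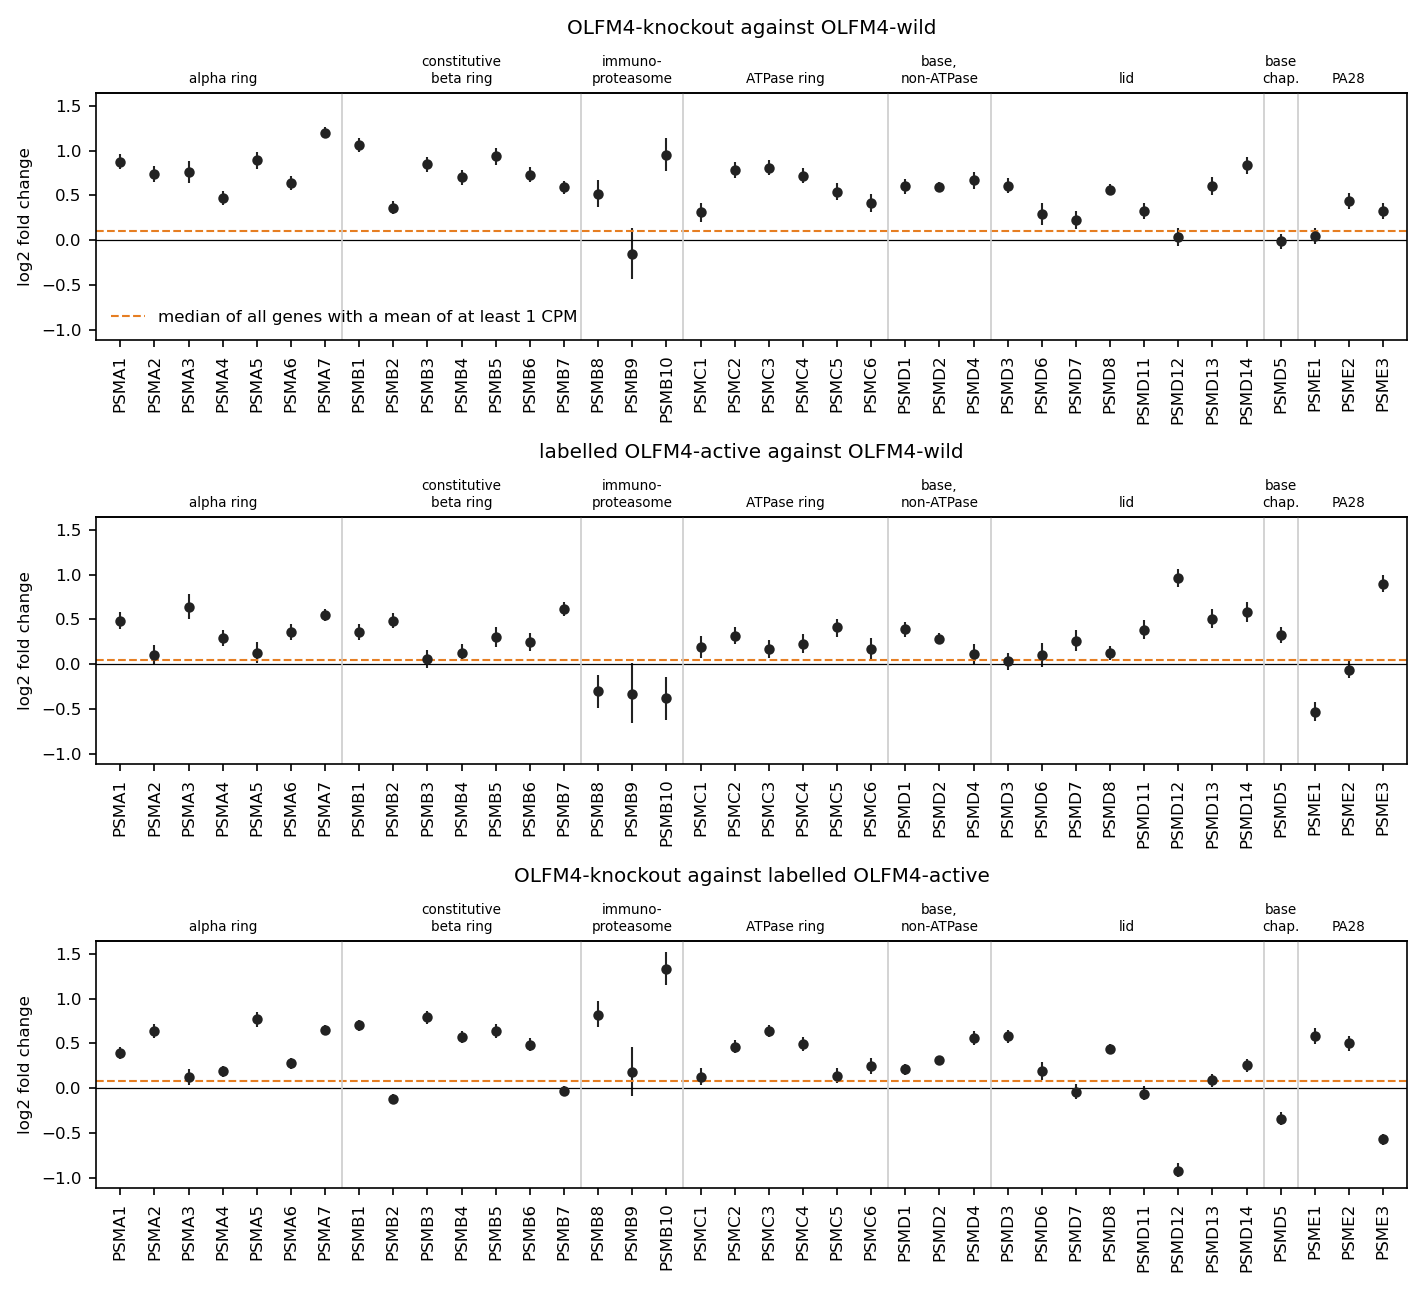
Log2 fold change of each proteasome gene in the 3 comparisons (vertical axis), with bars for the 95% interval of counting error and a dashed line at the median of the 16600 genes. In the knockout versus wild comparison all 14 constitutive core genes lie above the dashed line, and in the active-labelled versus wild comparison the 3 immunoproteasome genes, PSME1 and PSME2 lie below 0.

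Among the alpha ring genes, which form the gate of the core, all 7 were higher in the knockout than in the wild library with either scaling, and their median was 0.76 (0.41 with totals). PSMA7 was the most abundant proteasome gene per length and had the largest difference of the 38 in this comparison. It had 2598, 16899 and 5006 counts in the wild, knockout and active-labelled libraries, or 143, 329 and 210 CPM. PSMA7 thus lay 1.20 (95% interval 1.14 to 1.26) above wild on the log2 scale in the knockout and 0.55 (0.48 to 0.62) above it in the active-labelled library. PSMA4 had the smallest difference of the ring, at 89.5, 124 and 109 CPM from 1627, 6381 and 2608 counts, with a log2 fold change of 0.47 (0.39 to 0.55) in the knockout library. PSMA5 stood at 54.8, 102 and 60.0 CPM from 996, 5235 and 1433 counts. It was thus high in the knockout library alone, at 0.90 (0.80 to 0.99) against wild and 0.77 (0.68 to 0.85) against the active-labelled library.

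PSMA3 showed another order, at 37.6, 63.8 and 58.8 CPM from 684, 3274 and 1404 counts, and it was the alpha gene with the largest log2 fold change in the active-labelled versus wild comparison, 0.64 (0.51 to 0.78). The knockout library exceeded the active-labelled one by only 0.12 (0.03 to 0.21) for this gene, and with totals it was lower by that measure, at -0.12. PSMA2 stood at 64.0, 107 and 68.6 CPM from 1163, 5486 and 1638 counts, and its active-labelled value could not be told from wild within counting error, at 0.10 (-0.01 to 0.21), or -0.02 with totals. PSMA1 and PSMA6 lay between these, at 0.87 and 0.64 in the knockout and 0.48 and 0.36 in the active-labelled library, each against wild. PSMA1, PSMA2 and PSMA6 each share exonic bases with another coding entry on the same strand that had counts of the same size, such as 1460, 7087 and 2525 for the neighbour of PSMA1 against 1373, 7110 and 2522 for PSMA1 itself. How read pairs in shared bases were assigned is not given in the sources used here, so the values of these genes are uncertain to that extent.

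The median of the constitutive beta ring genes was 0.73 in the knockout versus wild comparison (0.38 with totals), and all 7 were above 0 with either scaling. PSMB1, a non-catalytic subunit, had the largest difference, at 85.1, 177 and 109 CPM from 1547, 9110 and 2611 counts in the wild, knockout and active-labelled libraries. Its log2 fold changes were 1.06 (0.98 to 1.14) and 0.36 (0.27 to 0.45) against wild. PSMB2, also non-catalytic, had the smallest, at 96.1, 124 and 134 CPM from 1747, 6356 and 3208 counts. Its log2 fold change was 0.36 (0.29 to 0.44) in the knockout library but only 0.01 with totals, and the active-labelled library was the highest of the 3. PSMB3 stood at 76.8, 138 and 79.9 CPM from 1396, 7094 and 1908 counts, so that it was high in the knockout library alone. The active-labelled value of PSMB3 differed from wild by 0.06 (-0.04 to 0.16), or -0.06 with totals. PSMB4 had log2 fold changes of 0.70 and 0.13 against wild in the knockout and the active-labelled library.

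The catalytic genes of the constitutive ring differed in how the active-labelled library stood. PSMB5, which carries the chymotrypsin-like activity, had 1031, 5579 and 1668 counts, or 56.7, 109 and 69.8 CPM, and a log2 fold change of 0.94 (0.84 to 1.03) in the knockout versus wild comparison. PSMB6, which carries the caspase-like activity, had 1323, 6214 and 2070 counts, or 72.8, 121 and 86.6 CPM, and a log2 fold change of 0.73 (0.65 to 0.82). PSMB7, which carries the trypsin-like activity, had 2039, 8649 and 4108 counts, or 112, 168 and 172 CPM. It differed by 0.59 (0.52 to 0.66) in the knockout and 0.62 (0.54 to 0.69) in the active-labelled library against wild. PSMB7 thus stood at like levels in the last 2 libraries, with a difference between them of -0.03 (-0.08 to 0.02), or -0.27 with totals, whereas PSMB5 and PSMB6 were 0.64 and 0.48 higher in the knockout than in the active-labelled library.

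The immunoproteasome genes were far less abundant than their constitutive partners and followed a different pattern. PSMB8 had 461, 1866 and 491 counts in the wild, knockout and active-labelled libraries, or 25.4, 36.4 and 20.5 CPM. PSMB10 had 290, 1587 and 293 counts, or 16.0, 30.9 and 12.3 CPM. PSMB9 had 147, 375 and 154 counts, or 8.09, 7.31 and 6.45 CPM. With TMM each of these genes was therefore lowest in the active-labelled library. PSMB8 and PSMB10 were highest in the knockout library. PSMB9 was highest in the wild library, and its intervals against both other libraries included 0.

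In the knockout versus wild comparison the log2 fold change was 0.52 (0.37 to 0.67) for PSMB8, 0.95 (0.77 to 1.14) for PSMB10 and -0.15 (-0.43 to 0.14) for PSMB9, whose interval included 0; with totals the last was -0.50. In the active-labelled versus wild comparison it was -0.30 (-0.49 to -0.12), -0.38 (-0.62 to -0.14) and -0.33 (-0.66 to 0.01) in the same order, and all 3 stayed negative with totals. With TMM these were the only 3 of the 17 core genes below 0 in that comparison, and with totals PSMA2 and PSMB3 were below 0 too. The knockout library exceeded the active-labelled one by 0.82 (0.68 to 0.97) for PSMB8 and by 1.33 (1.15 to 1.52) for PSMB10, the largest difference of any member between those libraries. PSMB8 and PSMB9 lie in the MHC region at chr6:32840717-32844679 and chr6:32844136-32859851 on opposite strands, and PSMB10 lies at chr16:67934506-67936864 (gene spans in GENCODE 44, GRCh38). PSMB9 shares 174 exonic bases on its own strand with PSMB8-AS1, which had 226, 603 and 160 counts, and PSMB10 shares 640 with a coding entry that had 241, 1261 and 313 counts, so both values are uncertain to that extent.

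Ratios within a library do not depend on how libraries were scaled. For every 100 counts of PSMB5 there were 44.7 (95% interval 40.0 to 50) counts of PSMB8 in the wild library, 33.4 (31.7 to 35.3) in the knockout library and 29.4 (26.6 to 32.6) in the active-labelled library. For every 100 counts of PSMB6 there were 11.1 (9.31 to 13.2), 6.03 (5.42 to 6.70) and 7.44 (6.27 to 8.77) counts of PSMB9. For every 100 counts of PSMB7 there were 14.2 (12.5 to 16.1), 18.3 (17.4 to 19.4) and 7.13 (6.31 to 8.03) counts of PSMB10. The wild library thus had the highest share of immunoproteasome counts in the first pair and the second, and the knockout library in the third.

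Against wild, the log2 ratio of PSMB8 to PSMB5 differed by -0.42 (-0.60 to -0.24) in the knockout and by -0.60 (-0.82 to -0.38) in the active-labelled library. That of PSMB9 to PSMB6 differed by -0.88 (-1.17 to -0.58) and -0.58 (-0.93 to -0.23). That of PSMB10 to PSMB7 differed by 0.37 (0.17 to 0.57) and -1.0 (-1.25 to -0.74), in opposite directions. The active-labelled library was below wild in all 3 pairs and the knockout library in PSMB8 and PSMB9 only, each by more than counting error. Summed, the immunoproteasome genes had 4.34 (4.06 to 4.64), 3.77 (3.65 to 3.89) and 2.67 (2.50 to 2.85) counts per 100 counts of the 14 constitutive core genes.

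**Figure D3:**
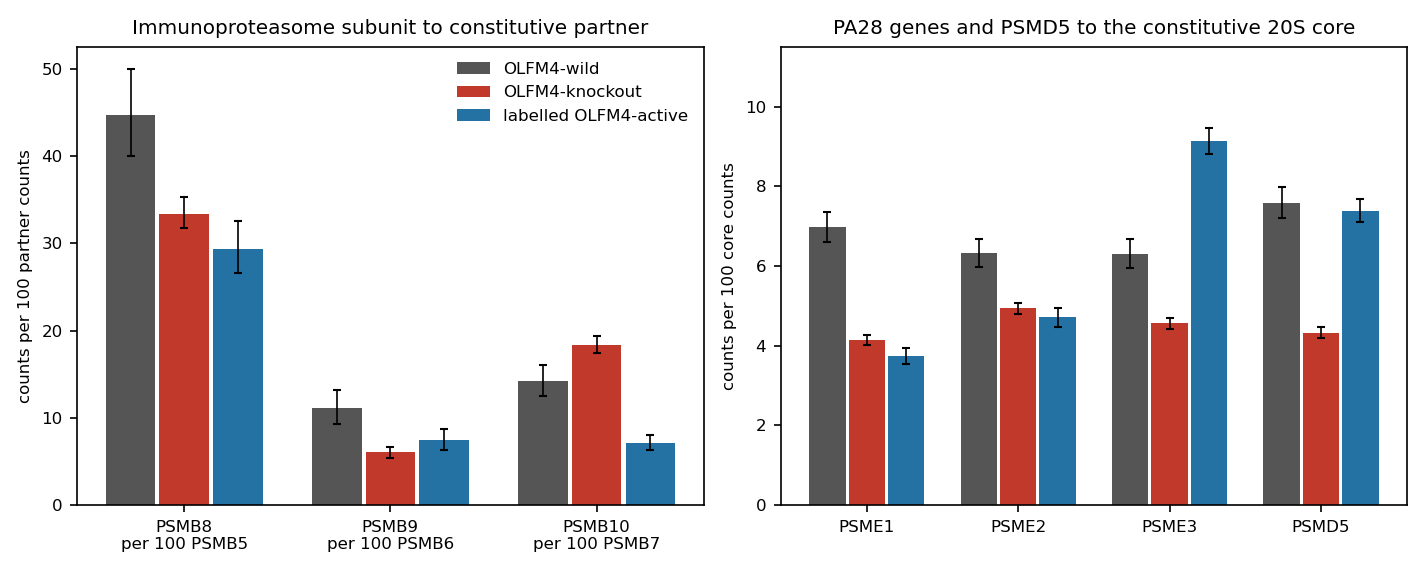
Counts of each immunoproteasome gene per 100 counts of its constitutive partner (left) and of the PA28 genes and PSMD5 per 100 counts of the 14 constitutive core genes (right) in the 3 libraries; bars start at 0 and error bars are 95% intervals of counting error. PSMB10 per PSMB7 is highest in the knockout library, at 18.3, and PSME3 per core is highest in the active-labelled library, at 9.14.

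The PA28 genes split by type. PSME1, the alpha subunit of cytoplasmic PA28, had 1441, 4217 and 1309 counts in the wild, knockout and active-labelled libraries, or 79.3, 82.1 and 54.8 CPM. It was equal to wild within counting error in the knockout library, at 0.05 (-0.04 to 0.14), and at -0.53 (-0.64 to -0.42) it was the lowest of the 38 in the active-labelled versus wild comparison. With totals the first value was -0.30. PSME2, the beta subunit, had 1307, 5016 and 1654 counts, or 71.9, 97.7 and 69.2 CPM, with log2 fold changes of 0.44 (0.35 to 0.53) and -0.06 (-0.16 to 0.05) against wild. PSME3, the nuclear PA28 gene, had 1304, 4631 and 3207 counts, or 71.8, 90.2 and 134 CPM, with 0.33 (0.24 to 0.42) and 0.90 (0.81 to 1.0). The first of these PSME3 values was -0.02 with totals.

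Taken per 100 constitutive core counts, PSME1 stood at 6.97 (6.60 to 7.35), 4.15 (4.02 to 4.28) and 3.73 (3.53 to 3.94) and PSME2 at 6.32 (5.97 to 6.68), 4.94 (4.80 to 5.08) and 4.71 (4.48 to 4.95). Both were highest in the wild library. PSME3 stood at 6.31 (5.96 to 6.67), 4.56 (4.43 to 4.69) and 9.14 (8.81 to 9.47), highest in the active-labelled library, so the order of the libraries differed between cytoplasmic and nuclear PA28. PSME1 at chr14:24136163-24138967 and PSME2 at chr14:24143362-24147570 are neighbours on opposite strands, and PSME3 is at chr17:42824385-42843760. PSME2 has 6 annotated pseudogenes, whose reads may be split or lost in counts of uniquely mapped pairs.

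The 17 genes of the 19S particle were above 0 in the knockout versus wild comparison with TMM, with a median of 0.59, and 12 of 17 with totals. Per 100 constitutive core counts the particle had 111 (109 to 113) counts in the wild, 94.3 (93.4 to 95.1) in the knockout and 106 (105 to 108) in the active-labelled library, so it was lowest relative to the core in the knockout library. Of its parts the lid gave the widest gap, with 48.6 (47.5 to 49.8), 39.0 (38.6 to 39.5) and 48.3 (47.4 to 49.2). The ATPase ring had 33.6 (32.7 to 34.5), 30.1 (29.8 to 30.5) and 31.0 (30.4 to 31.7), and the rest of the base 28.6 (27.8 to 29.4), 25.1 (24.7 to 25.4) and 26.9 (26.3 to 27.6).

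The ATPase genes unfold and translocate substrates, and their median was 0.63 in the knockout versus wild comparison (0.28 with totals, 5 of 6 above 0). PSMC3 was the highest, at 79.4, 139 and 89.3 CPM from 1442, 7134 and 2133 counts in the wild, knockout and active-labelled libraries, with 0.81 (0.73 to 0.89) in the knockout library. PSMC2 and PSMC4 were close to it, at 0.78 and 0.72. PSMC1 was the lowest, at 46.9, 58.2 and 53.6 CPM from 852, 2989 and 1280 counts, with 0.31 (0.20 to 0.42), or -0.04 with totals. PSMC1 has 13 annotated pseudogenes, the most of any member, and its value is uncertain for that reason. PSMC5, at 62.8, 91.7 and 83.3 CPM from 1142, 4707 and 1990 counts, had the largest ATPase difference in the active-labelled versus wild comparison, 0.41 (0.30 to 0.51). PSMC6, at 52.9, 70.7 and 59.4 CPM from 962, 3630 and 1420 counts, had the smallest, 0.17 (0.05 to 0.29).

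The 3 other base genes varied little among themselves in the knockout versus wild comparison, from 0.59 to 0.67. PSMD4, a receptor for ubiquitin chains, stood at 63.0, 100 and 67.8 CPM from 1145, 5135 and 1621 counts, with 0.67 (0.57 to 0.76). PSMD2, a scaffold that docks shuttle proteins, was the most abundant of the base, at 168, 253 and 204 CPM from 3044, 12979 and 4877 counts, with 0.59 (0.54 to 0.65). PSMD1, the other large scaffold, stood at 94.7, 143 and 124 CPM from 1721, 7363 and 2958 counts. It was the highest of the 3 in the active-labelled versus wild comparison, at 0.39 (0.30 to 0.47), where PSMD4 was at 0.11 with an interval that included 0, or -0.01 with totals.

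The lid genes spanned the widest range of the constitutive groups, from 0.04 to 0.84 in the knockout versus wild comparison. Their median there was 0.44 with 8 of 8 above 0, but 0.09 with 4 of 8 above 0 with totals. PSMD14, the deubiquitinase of the lid, was the highest, at 58.9, 105 and 88.0 CPM from 1070, 5402 and 2103 counts, with 0.84 (0.74 to 0.93). PSMD12, a scaffold subunit of the lid, was the lowest, at 57.0, 58.7 and 111 CPM from 1036, 3012 and 2650 counts. It did not differ from wild beyond counting error in the knockout library, at 0.04 (-0.06 to 0.14), or -0.31 with totals, and it was the highest of all 38 in the active-labelled library, at 0.96 (0.86 to 1.06). The knockout versus active-labelled comparison gave -0.92 (-0.99 to -0.84) for PSMD12, the lowest value of any member.

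PSMD3, at 85.4, 131 and 87.6 CPM from 1552, 6704 and 2093 counts, was highest in the knockout library, with 0.61 (0.53 to 0.69) in the knockout and 0.04 (-0.06 to 0.13) in the active-labelled library against wild, the latter -0.08 with totals. The remaining lid genes were PSMD13, PSMD8, PSMD11, PSMD6 and PSMD7, with log2 fold changes of 0.60, 0.56, 0.33, 0.29 and 0.22 in the knockout library against wild, of which those of PSMD11, PSMD6 and PSMD7 were at or below -0.03 with totals. The base chaperone PSMD5, which holds an ATPase module during assembly and then leaves, stood at 86.4, 85.6 and 109 CPM from 1570, 4394 and 2594 counts. Its log2 fold changes were -0.01 (-0.10 to 0.07) and 0.33 (0.24 to 0.42) against wild, the first -0.37 with totals, and per 100 core counts it had 7.59 (7.21 to 7.99), 4.33 (4.20 to 4.46) and 7.39 (7.10 to 7.69) in the 3 libraries.

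Transcript length moved with the difference between libraries. Over 9369 coding genes of at least 10 CPM on average with a MANE Select transcript, the Spearman correlation of log2 fold change with transcript length was -0.41 in the knockout versus wild comparison, 0.01 in the active-labelled versus wild comparison and -0.50 between the knockout and the active-labelled library. Over the 38 members it was -0.41, 0.27 and -0.53. Over the 32 members outside the immunoproteasome and PA28 groups it was -0.57, 0.04 and -0.49. These points share the same libraries and their depth. The proteasome transcripts were 762 to 4426 bases long, with a median of 1476, and the 3077 coding genes within the members' length quartiles had medians of 0.36, 0.11 and 0.27 in the 3 comparisons, a set chosen after the data were seen.

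Within length classes the members lay above the coding genes in the knockout versus wild comparison. Up to 1000 bases the median was 0.75 for 10 members, among them PSMA7 and PSMB1, and 0.52 for 547 coding genes. Between 3000 and 4000 bases it was 0.33 for 5 members and 0.16 for 1506 coding genes. All 14 constitutive core genes lay above the median of their own class, by a median of 0.33, from 0.07 for PSMB7 to 0.73 for PSMA5. Of the 17 genes of the 19S particle 15 did so, by a median of 0.21, and of the 3 PA28 genes 1 did. PSMB9 was 0.61 and PSME1 0.47 below the median of their class. Over all 38 members 32 lay above their class, by a median of 0.23. In the active-labelled versus wild comparison 27 of 38 did so, by a median of 0.18, but none of the 3 immunoproteasome genes, which were 0.43 to 0.45 below it. Between the knockout and the active-labelled library it was 24 of 38, by a median of 0.09, and 2 of the 8 lid genes. The part of length in these differences was not tested beyond this.

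**Figure D4:**
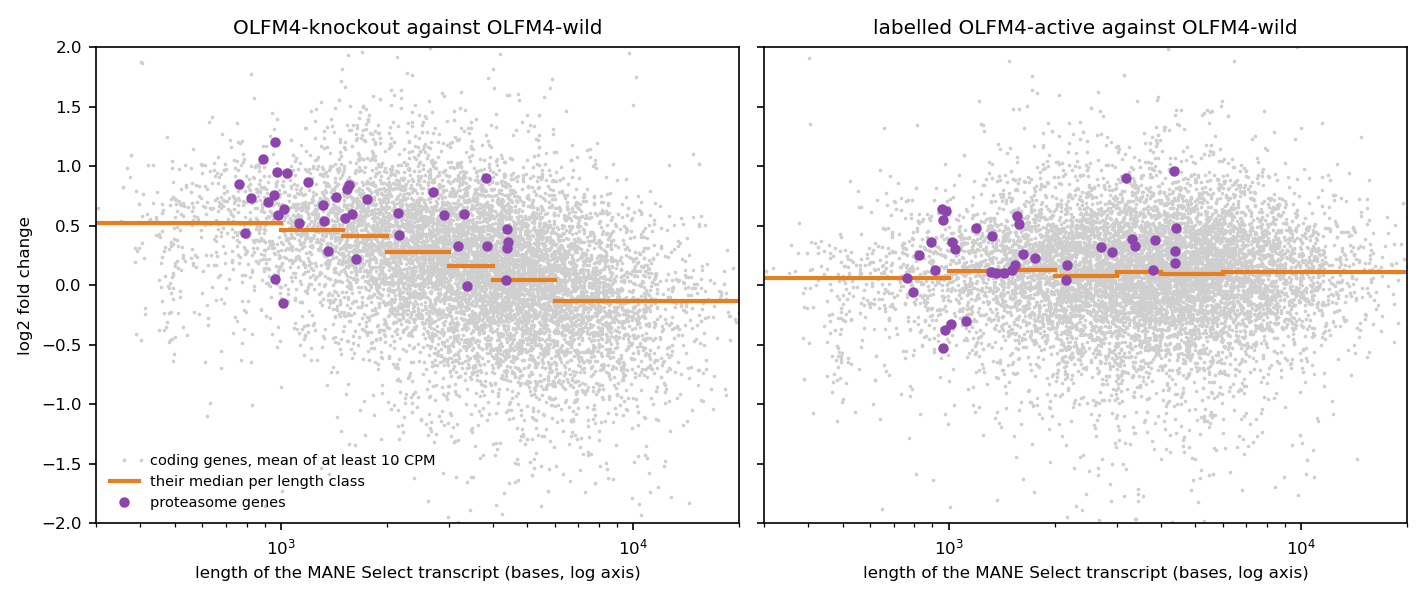
Log2 fold change against the length of the MANE Select transcript (bases, log axis) for coding genes of at least 10 CPM on average (grey), their median per length class (orange lines) and the proteasome genes (purple); values beyond 2 on either side are not drawn. In the knockout versus wild comparison (left) the class medians fall from 0.52 to -0.13 with length, and in the active-labelled versus wild comparison (right) they stay between 0.06 and 0.13.

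Compared per length, the members spanned a wide range of levels within a library. On the length of all annotated exons, the level ran from 2.42 to 81.6 CPM per kilobase in the wild library with a median of 15.9, from 2.19 to 188 with a median of 20.9 in the knockout library, and from 1.93 to 120 with a median of 20.1 in the active-labelled library. On the MANE Select transcript, a length chosen after the data were seen, the medians were 39.6, 66.5 and 48.6. PSMB9 was the lowest and PSMA7 the highest in every library by both lengths. On the MANE length the constitutive catalytic genes PSMB5, PSMB6 and PSMB7 had 54.3, 88.4 and 114 CPM per kilobase in the wild library, and PSMB8, PSMB9 and PSMB10 had 22.6, 7.95 and 16.3. By this length, subunits that take 1 place each in the same ring stood at unlike levels, as in the alpha ring, where PSMA5 had 14.4 and PSMA7 149. The size of this gap depends on the lengths taken, 3815 bases for PSMA5 and 962 for PSMA7. Without division by length they had 54.8 and 143 CPM in the wild library. Which transcripts the cells used was not tested.

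The members were also split by these letters. The median over the 7 members with a match was 0.52 in the knockout and -0.06 in the active-labelled library, each against wild, and 0.57 between the knockout and the active-labelled library. The 26 with a window and no match had 0.60, 0.29 and 0.23. For the letters TGACNNNGC the medians of the 11 members with a match were 0.47, 0.23 and 0.21, and those of the 22 without were 0.62, 0.27 and 0.30. Besides the members shown above, the matches of GAAANNGAA were in the constitutive genes PSMB4, PSMC2 and PSMA4. In the active-labelled versus wild comparison these stood at 0.13, 0.32 and 0.29, near the median of members without a match. The members shown, PSMB8, PSMB10, PSME1 and PSME2, stood at -0.30, -0.38, -0.53 and -0.06, and their promoters were picked after values were seen. PSMB9, without a match, stood at -0.33. The part of these letters in the values was not tested.

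The genes that control the proteasome were mostly lower than in the wild library. NFE2L1, the activator of the constitutive genes, stood at 257, 215 and 218 CPM in the wild, knockout and active-labelled libraries, with log2 fold changes of -0.26 (-0.31 to -0.21) and -0.24 (-0.30 to -0.18) against wild. Over 8 regulators the median was -0.47 and -0.46, and 1 and 3 of 8 were above 0, against 56.7% and 53.9% of all genes. With totals 0 and 2 were above 0, where all genes had medians of -0.26 and -0.07. From the median of all genes the regulators' median differed by -0.57 and -0.5. The 3 above wild in the active-labelled library were NFE2L2, DDI2 and NGLY1, at 0.06, 0.28 and 0.16. NGLY1, the glycanase that processes NFE2L1 protein, had the largest value in the knockout versus wild comparison, 0.19 (-0.04 to 0.42), which was -0.17 with totals. IRF1, an interferon regulatory factor known for its control of PSMB9 and TAP1, had the smallest. It had 572, 805 and 220 counts, or 31.5, 15.7 and 9.21 CPM, and log2 fold changes of -1.01 (-1.16 to -0.85) and -1.77 (-2.0 to -1.55).

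Assembly and accessory factors were expressed in 17 of 19 cases, and PSMA8 and PSMB11, variant subunits of testis and thymus, were at 0 in every library. The median of the 17 was 0.21 in the knockout and 0.34 in the active-labelled library against wild, of which the first was -0.14 with totals. ADRM1, a ubiquitin receptor of the base, was the highest in the knockout library, at 130, 260 and 169 CPM with 1.0 (0.94 to 1.06), and PAAF1, a chaperone that binds ATPases, the lowest, at 9.96, 6.14 and 11.7 CPM with -0.70 (-0.97 to -0.43). USP14, a deubiquitinase bound to the proteasome, had 73.0, 60.6 and 139 CPM. Its level in the knockout library lay 1.20 below that in the active-labelled library on the log2 scale, at -1.20 (-1.27 to -1.13), and as in PSMD12 the active-labelled library was the highest.

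Among 14 genes for ubiquitin, its activating enzymes and shuttle factors, the median was 0.26 and 0.09 against wild, with totals -0.09 and -0.02. RPS27A, which encodes ubiquitin fused to a ribosomal protein, was the highest in the knockout library at 0.70 (0.66 to 0.73), and the shuttle factor UBQLN2 the lowest at -0.58 (-0.72 to -0.44). Of the 11 partners of the immunoproteasome in MHC class I display, 6 were above 0 in the knockout and 2 in the active-labelled library against wild (56.7% and 53.9% of all genes), with medians of 0.01 and -0.36. With totals these were 0 and 1 of 11, with medians of -0.34 and -0.47, where all genes had medians of -0.26 and -0.07. From the median of all genes the partners' median differed by -0.08 and -0.4, with 5 and 1 of 11 above it. HLA-B, whose reads can be split among near-identical HLA genes, was the lowest, at 71.5, 38 and 29.8 CPM, with -0.91 (-1.02 to -0.81) and -1.27 (-1.40 to -1.13), and TAP2 the highest in the knockout library, at 0.34 (0.24 to 0.45), or -0.01 with totals. TAP1, beside PSMB9, stood at 40.3, 43.2 and 29.3 CPM, with 0.10 (-0.02 to 0.22) and -0.46 (-0.61 to -0.31).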

How the data were processed

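The deposited table holds raw counts per gene, which the authors made from TruSeq stranded total RNA libraries (Ribo-Zero) with cutadapt, HISAT2 and featureCounts on GRCh38, from uniquely mapped, reversely stranded read pairs. Depth was 16309906, 58837147 and 23224216 counts. Symbols, positions and lengths came from GENCODE 44 (56993 of 58037 identifiers, 98.2%, matched). Library sizes were scaled with TMM (edgeR 4.0.16, R 4.3.3), CPM were taken from them, and log2 fold changes used an offset of 0.5 counts as in limma-voom. Other steps used Python 3.11.15, numpy 2.4.6, pandas 2.3.3, scipy 1.17.1 and matplotlib 3.10.9. Intervals are at 95%. Those of log2 fold changes and of ratios within a library are conditional Clopper-Pearson intervals, and those of OLFM4 levels are binomial ones. Differences of log2 ratios between libraries have exact conditional intervals of the odds ratio. Only the intervals of log2 fold changes were tested on simulated Poisson counts. No p-value was computed. All 38 members are accounted for. By a fixed rule, counts and CPM are given for the immunoproteasome genes, their partners, PA28 and the highest and lowest of each subunit group. From the 4 lists of assembly factors, regulators, ubiquitin genes and MHC class I partners, the rule named the genes with the largest rise and fall in the knockout versus wild comparison, genes beyond a log2 fold change of 1, and NFE2L1. TAP1 was named, and the promoters shown were picked, after values were seen. Members and lists were chosen with earlier results of these data known.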

Additional observations from a re-analysis of the deposited data

How the results depend on the processing

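The scaling of the libraries decided how many members passed a fold limit. With library totals the members' median log2 fold change was 0.24 in the knockout versus wild comparison, 0.16 in the active-labelled versus wild comparison and 0.11 in the knockout versus active-labelled comparison, and 6, 4 and 4 members were above 0.5. One more count moved, with 1 member (PSMB9) below -0.5 in the knockout versus wild comparison. With upper quartile factors the medians of the first and the last comparison were 0.51 and 0.25. Counts thinned to the smallest library left 0 members below -0.5 in the active-labelled versus wild comparison. With DESeq2 size factors, offsets of 1 or 5 counts, and library sizes without the 10 most abundant genes, the members' medians and the counts beyond 0.5 stayed close to the main values, the medians within 0.03. No paired analysis was possible because there was 1 library per condition. Leaving out a library would leave no value for its genotype, so it was not run. Of 57 values for subunit groups and named genes, 52 moved by more than counting error with library totals, 23 with upper quartile factors and 0 with DESeq2 size factors, either offset or thinned counts, and no value beyond 0.5 changed sign. Smaller values did with totals, such as those of PSMD12, PSME1, PSME3 and the PA28 median in the knockout versus wild comparison. Levels per length of 37 of 38 members moved when another length was used. Depth limits PSMB9 most, with 147 to 375 counts and the widest intervals of the members.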
